A study of Mus musculus with 21 samples.

Results

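The response of wild-type mouse liver to carbon tetrachloride (CCl4) was read from 2 of the 21 samples of the series, which are RNA-seq of WT liver at 3 months with CCl4 and of WT liver at 2 months without it. Each gene had 1 FPKM value per group (a read density corrected for gene length and for how many fragments the library mapped). Genes that reached 1 FPKM in either of the 2 groups were compared, which were 10885 of the 22520 genes in the deposited table. Of these, 9462 reached 1 FPKM in both groups, 936 only with CCl4 and 487 only at 2 months. WT liver at 8 months served to mark genes whose 2-month value was unusual.

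Across the series, liver RNA was sequenced from 4 genotypes in 3 conditions, and 9 ChIP-seq samples are not analysed here. The WT animals carried floxed Ezh2 alleles and no Cre (Ezh2fl/fl). E1KO animals were Ezh1-/-. E2KO animals were Ezh2fl/flAlb-Cre, in which the albumin promoter drives Cre in hepatocytes, so that other liver cells keep Ezh2. DKO animals carried both changes (Ezh1-/-Ezh2fl/flAlb-Cre). All were on a mixed 129SV::FVB/N::C57BL/6 background, and the labels do not state their sex. CCl4 was given into the peritoneum at 2 ml/kg, 2 times a week over 2 weeks, beginning at 3 months, and livers were taken 24 h after the last dose. Whether the 2-month and 8-month animals received a vehicle is not stated in the labels. The CCl4 animals were therefore at least 1 month older than the 2-month animals, and the toxin, the injections and this age difference cannot be told apart. The sample titles name 3 replicates for the CCl4 and 2-month groups and 2 for the 8-month groups, but each group has a single value, so no difference below carries a spread between animals.

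CCl4 is turned into a reactive radical mainly by the cytochrome P450 enzyme Cyp2e1, which is made by the hepatocytes around the central vein, and these pericentral cells are the ones that die first. Surviving hepatocytes leave quiescence, copy their DNA and divide, while macrophages clear debris and stellate cells turn into contractile, matrix-producing myofibroblasts. Genes of mitosis are known to share promoter elements, among them the CHR (cell cycle genes homology region) and CCAAT boxes, through which they are held silent in resting cells and switched on late in the cycle.

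The genes with the highest differences in this comparison were largely mitotic genes, so promoters of this group are shown. The 250 bases before the first RefSeq start (GRCm38.p6) were searched on both strands for the CHR words TTTGAA and TTCGAA (the first reads TTCAAA on the other strand, the second reads the same on both). They were also searched for CCAAT, which reads ATTGG on the other strand. A promoter was matched for 60 of the 72 mitotic genes in the table (83.3%). Of these 60, 36.7% held a CHR word, 70% held CCAAT and 30% held both. Among all 27025 RefSeq promoters the shares were 17.4%, 34.5% and 6.21%, and among the 16965 matched to genes of the table they were 15.7%, 36.4% and 6.04%. Other lists also held these words. Of 46 promoters of xenobiotic P450 genes, 36.96% held a CHR word, 36.96% CCAAT and 13.04% both, and of 40 promoters of replication genes 17.5%, 62.5% and 15%. The other 5 lists searched held both words in 0% to 10.42%, and no test compares the lists. A match describes the letters in this window and does not show a site in use. The promoters of the 5 mitotic genes with the highest WT differences among the 18 that held both words follow, written 5′ to 3′ on the strand of the gene, with matched letters in capitals. Ube2c lies at chr2:164769679-164769928 (+), Cdc20 at chr4:118437344-118437593 (-), Cdk1 at chr10:69352913-69353162 (-), Ccnb2 at chr9:70421555-70421804 (-) and Top2a at chr11:99024190-99024439 (-).
Ube2c: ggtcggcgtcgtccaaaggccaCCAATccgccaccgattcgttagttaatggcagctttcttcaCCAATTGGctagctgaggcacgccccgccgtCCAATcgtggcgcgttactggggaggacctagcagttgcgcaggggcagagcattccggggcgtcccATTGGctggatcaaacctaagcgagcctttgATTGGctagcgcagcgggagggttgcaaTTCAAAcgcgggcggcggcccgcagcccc
Cdc20: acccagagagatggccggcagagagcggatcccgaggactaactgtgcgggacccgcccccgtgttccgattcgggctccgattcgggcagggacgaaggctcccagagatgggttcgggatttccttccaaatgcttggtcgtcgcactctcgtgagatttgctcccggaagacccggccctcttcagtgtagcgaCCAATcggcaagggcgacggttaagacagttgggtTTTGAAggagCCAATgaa
Cdk1: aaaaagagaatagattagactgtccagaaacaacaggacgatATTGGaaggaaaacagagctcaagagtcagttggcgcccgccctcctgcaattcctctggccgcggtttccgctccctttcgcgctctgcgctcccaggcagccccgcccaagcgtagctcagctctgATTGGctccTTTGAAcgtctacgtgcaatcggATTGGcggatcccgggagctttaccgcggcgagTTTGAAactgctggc
Ccnb2: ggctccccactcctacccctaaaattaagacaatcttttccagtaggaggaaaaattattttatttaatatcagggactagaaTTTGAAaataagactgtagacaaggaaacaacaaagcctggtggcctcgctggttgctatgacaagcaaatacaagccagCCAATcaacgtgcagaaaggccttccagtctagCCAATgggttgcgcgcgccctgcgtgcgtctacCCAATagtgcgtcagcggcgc
Top2a: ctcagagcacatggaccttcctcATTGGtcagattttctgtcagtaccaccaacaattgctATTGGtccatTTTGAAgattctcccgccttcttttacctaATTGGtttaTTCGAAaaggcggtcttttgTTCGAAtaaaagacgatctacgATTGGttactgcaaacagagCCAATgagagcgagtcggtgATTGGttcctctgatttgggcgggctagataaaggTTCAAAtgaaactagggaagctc
Top2a, the DNA topoisomerase of dividing cells, held 4 CHR words and 6 CCAAT words, and Ube2c, which marks mitotic cyclins for destruction, held 1 and 6. In the Ube2c promoter a CCAAT word and its complement overlap.

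With CCl4, 1016 of the 10885 genes compared (9.33%) were higher than at 2 months by at least 1 on the log2(FPKM+1) scale, which is 2-fold for well expressed genes and more than that for low ones. Lower by the same amount were 604 (5.55%). Over all 22520 genes of the table these are 4.51% and 2.68%. A 4-fold threshold kept 262 higher and 130 lower genes. The median difference was 0.06 over the genes compared and 0 over the table. Of the 1016 higher genes, 413 passed the expression limit only through the CCl4 value, and 150 of the 604 lower genes only through the 2-month value. At the threshold stood Igfbp6 (0.52 to 2.04 FPKM, difference 1.00) on the inside and C1qc (28.8 to 58.5 FPKM, difference 0.9995) on the outside.

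The 8-month column gave a second untreated reference for the same CCl4 value. Beyond both untreated values were 789 higher genes (7.25%) and 358 lower genes (3.29%). The 2-month and 8-month values themselves lay at least 1 apart for 221 of the 1620 genes past the threshold, and for 133 of these 221 the CCl4 value was within 1 of the 8-month value (42 higher and 91 lower than at 2 months). A further 20 of the 221 were past the threshold in opposite directions from the 2 references. Where the 8-month value is given, it shows how far a difference rests on the 2-month value.

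The other genotypes have their own 2-month and CCl4 columns, so they repeat the contrast in other animals. The same difference was past the threshold in E1KO for 728 of the 1016 higher and 403 of the 604 lower genes, in E2KO for 806 and 421, and in DKO for 531 and 280. In the opposite direction past the threshold were 11 and 18 genes in E1KO, 9 and 13 in E2KO, and 8 and 18 in DKO. How many of all genes passed in each of these genotypes is not given here, so these overlaps have no base share beside them. WT, E1KO and E2KO together had 649 genes higher (5.96%) and 325 lower (2.99%). An additive fit of genotype and condition over the 12 columns (limma, 6 residual degrees of freedom, 11394 genes) called 3800 genes higher (33.4%) and 2794 lower (24.5%) with CCl4 at a Benjamini-Hochberg adjusted p under 0.05. The error of this fit measures how far the 12 values lie from additivity, not how animals differ. The fit called 947 of the 1016 WT-higher genes upward and 501 of the 604 WT-lower genes downward. The WT columns that picked these genes are part of this fit, so some of this overlap was fixed in advance. Fitted without the WT columns, it called 900 of 992 and 457 of 584. The share of all genes called in that second fit is not given here.

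**Figure D1:**
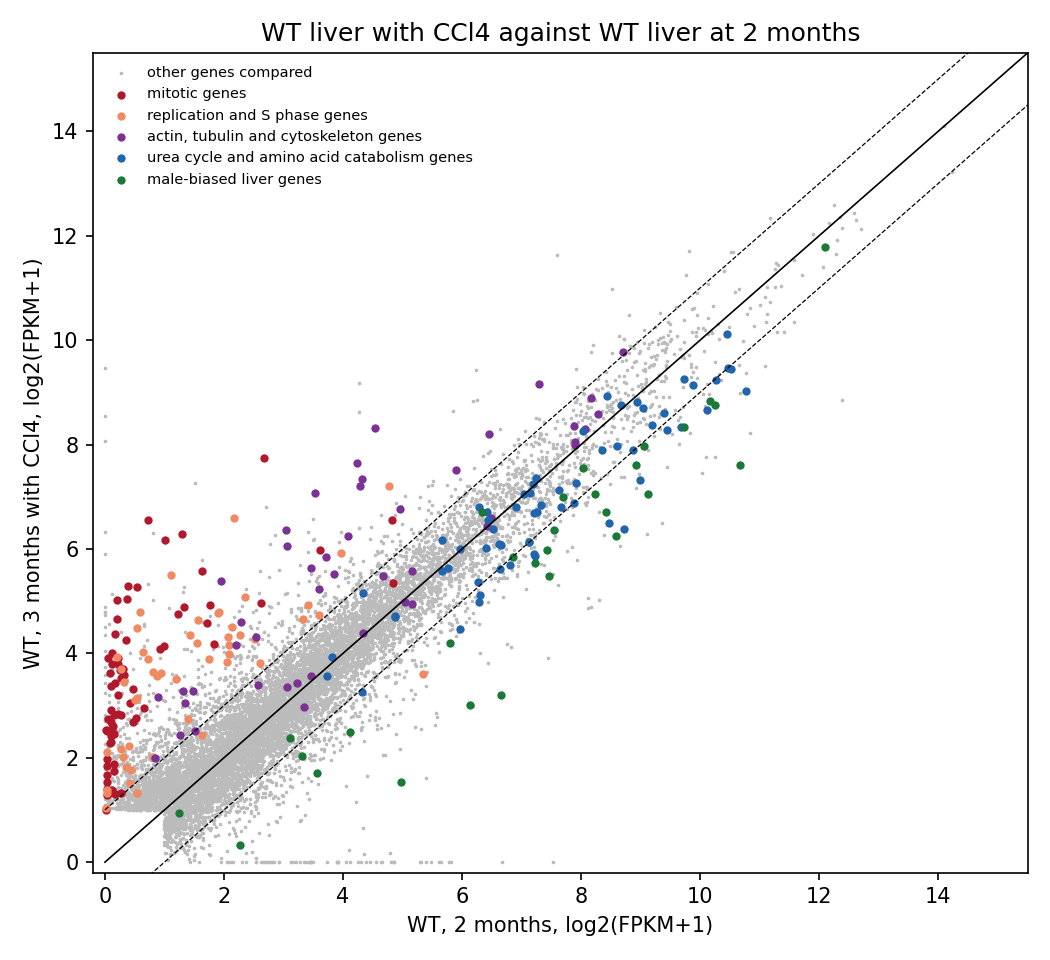
Each point is 1 gene of at least 1 FPKM in either group, with log2(FPKM+1) in WT liver at 2 months on the x axis and with CCl4 on the y axis; the solid line marks equality and the dashed lines a difference of 1. Mitotic genes (red) lie along the left edge, with Stmn1 the highest at 213.3 FPKM with CCl4, while urea cycle (blue) and male-biased genes (green) lie below the diagonal among the well expressed genes.

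Mitosis was the gene group that differed most. In the untreated livers mitotic genes were close to silent, and with CCl4 68 of the 72 in the table were higher past the threshold and none was lower. Of the 72, 70 reached 1 FPKM, 57 of them only through the CCl4 value, so for these passing the limit and being higher go together. The median difference over the 72 was 2.68 from 2 months and 2.68 from 8 months, against 0 for both over all genes. In E1KO, E2KO and DKO, each from its own 2-month value, the medians were 2.08, 2.39 and 1.35. Limma called 67 of the 69 fitted mitotic genes upward.

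Birc5 (survivin), a subunit of the chromosomal passenger complex, was 0.66 FPKM at 2 months, 1.23 at 8 months and 93.6 with CCl4. Cdk1, the kinase that drives entry into mitosis, was 0.46, 0.75 and 37.6 FPKM. For its partner cyclin Ccnb1 the values were 0.15, 0.16 and 24.1 FPKM. In each case the CCl4 value stood far above both untreated values. The differences from 2 months were 5.83 for Birc5, 4.72 for Cdk1 and 4.45 for Ccnb1.

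Cdc20, which activates the anaphase-promoting complex, was 0.31 FPKM at 2 months and 38.2 with CCl4, and Ube2c, the ubiquitin-conjugating enzyme of that complex, 1.45 and 77.2. Mki67, the Ki-67 proliferation marker, was 0.12 FPKM at 2 months, 0.15 at 8 months and 9.83 with CCl4. Stmn1, which destabilizes microtubules, was 5.37, 7.12 and 213.3 FPKM and was the most abundant of the named mitotic genes in treated liver. The other named members were Ccnb2 (0.3 to 32.0 FPKM), Cdca3 (1.02 to 70.8 FPKM) and the kinase Pbk (0.15 to 31.4 FPKM). Cdkn3, a phosphatase that acts on cyclin-dependent kinases and is not on the mitotic list, was 0.08 FPKM at 2 months and 34.0 with CCl4.

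The WT liver with CCl4 had the highest Cdk1 of the 4 genotypes, at 37.6 FPKM against 21.0 in E1KO, 23.8 in E2KO and 9.49 in DKO. Ccnb1 was likewise highest in WT and lowest in DKO, at 24.1 FPKM in WT, 14.3 in E1KO, 11.2 in E2KO and 5.35 in DKO. All 4 CCl4 values lay above all 8 untreated values, which reached 1.79 FPKM for Cdk1 and 0.79 for Ccnb1, both in DKO at 8 months. Over the genotypes the CCl4 difference of Cdk1 was 3.64 ± 0.40 (SE, limma, adjusted p 0.000132) and that of Ccnb1 3.46 ± 0.35 (SE, limma, adjusted p 0.000102), higher in 4 of 4 genotypes. A WT-by-CCl4 term, which asks whether the WT difference departs from that of the other genotypes, gave limma adjusted p 0.999 for both. Of all 11394 genes fitted, 2 passed that term (0.0176%).

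Genes of DNA replication were higher as a group too. Of the 51 replication and S phase genes in the table, 47 were higher past the threshold, 1 was lower and the median difference was 2.08 (1.93 from 8 months). Among the 50 that reached 1 FPKM, 24 did so only with CCl4. Limma called 50 of 51 upward and 1 downward.

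Mcm6, a subunit of the MCM helicase that unwinds DNA at origins, was 1.15 FPKM at 2 months, 1.76 at 8 months and 44.2 with CCl4. Its partners Mcm5 (0.5, 0.77 and 26.7 FPKM) and Mcm2 (0.65, 1.17 and 13.8 FPKM) gave the same order. Rrm2, the inducible subunit of ribonucleotide reductase, was 3.5, 4.5 and 95.6 FPKM. Gins2, a part of the replicative helicase, was 0.45, 0.93 and 21.5 FPKM, and Uhrf1, which keeps DNA methylation through replication, 0.15, 0.14 and 14.2 FPKM. In the other genotypes with CCl4, Mcm6 was 32.2 FPKM in E1KO, 45.5 in E2KO and 19.8 in DKO, so the WT value was not the highest there.

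Mcm10, a replication initiation factor, stood against the rest of its group. It was 11.1 FPKM with CCl4 against 39.5 at 2 months and 36.0 at 8 months, and was lower with CCl4 in each other genotype as well (difference over genotypes -1.45, limma adjusted p 0.000158). In untreated WT liver it was thus far above Mcm2, Mcm5 and Mcm6. Whether reads of an overlapping gene enter this value was not tested, since the strand used in counting is not stated.

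**Figure D2:**
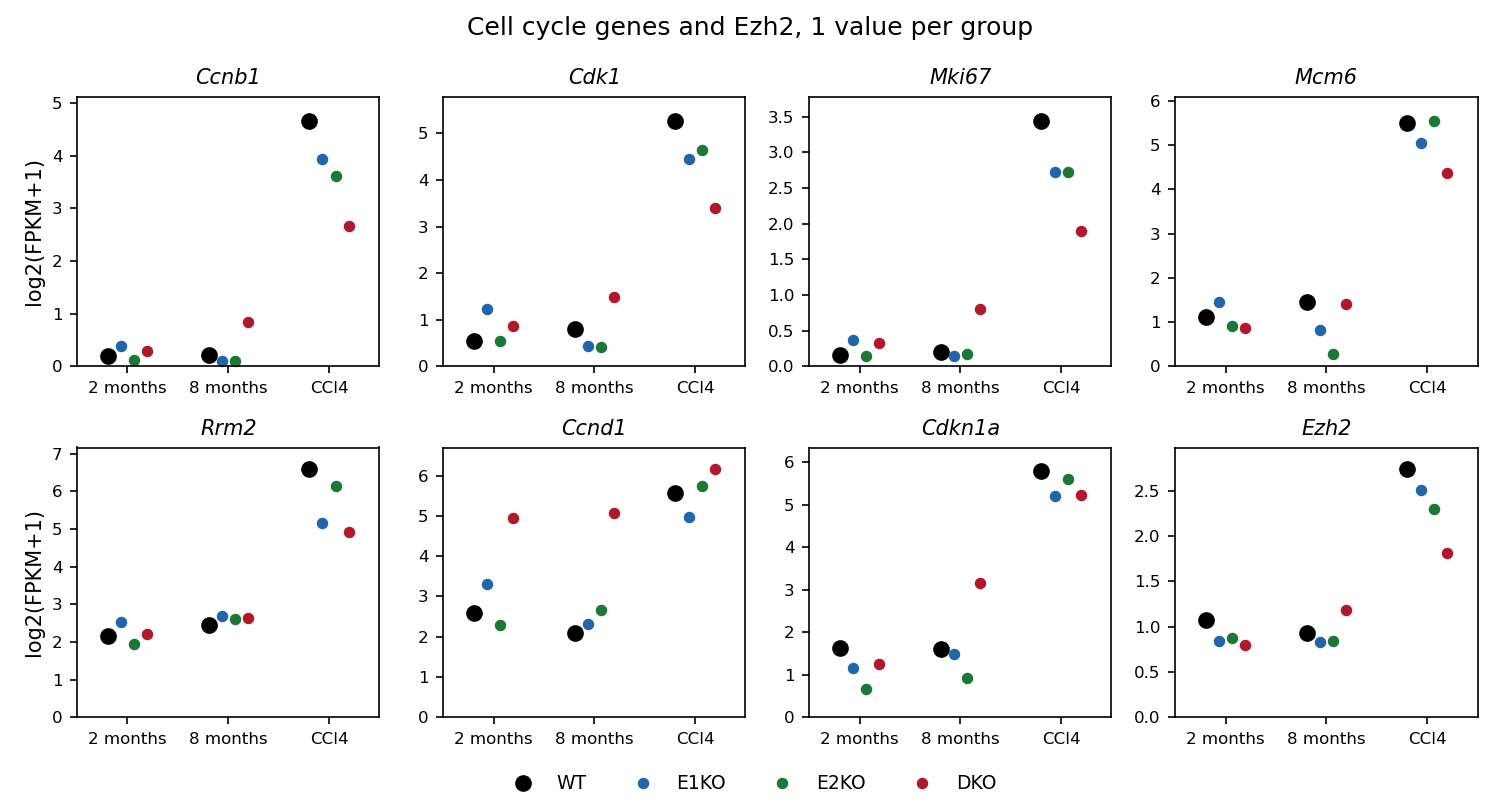
Log2(FPKM+1) of 8 genes at 2 months, at 8 months and with CCl4 (x axis) in WT (large black points), E1KO, E2KO and DKO, 1 value per group without error bars. For Ccnb1, Cdk1, Mki67, Mcm6, Rrm2 and Cdkn1a all 4 CCl4 points lie above every untreated point; Ccnd1 in DKO was 29.6 FPKM at 2 months and 32.4 at 8 months already.

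Upstream of S phase, only part of the cell cycle machinery passed the threshold in WT. Among 39 G1 cyclin and immediate early genes, 7 were higher, 2 were lower and the median difference was 0.36, with 30 of the 39 differences positive. In E1KO, E2KO and DKO 14, 12 and 10 were higher and 3, 2 and 2 lower. Limma called 21 of the 33 fitted upward and 3 downward, against 33.4% and 24.5% of all genes fitted. Ccnd1 (cyclin D1), which carries hepatocytes through G1, was 5.05 FPKM at 2 months, 3.24 at 8 months and 46.4 with CCl4. Id1, an inhibitor of differentiation factors that BMP signals induce, was 10.3, 12.97 and 71.3 FPKM. Egr1, an early response factor, was 3.85, 1.18 and 11.5 FPKM. Gadd45g, a stress-response inhibitor of the cell cycle, was lower, at 25.2, 16.1 and 3.13 FPKM. Dusp1, a MAP kinase phosphatase, went from 16.9 FPKM at 2 months to 6.82, but its 8-month value was 9.95.

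Among 43 CDK inhibitor and p53 target genes, 8 were higher and 2 were lower. The p53 target and CDK inhibitor Cdkn1a (p21) was 54.2 FPKM with CCl4 against 2.08 at 2 months and 2.03 at 8 months, so that p21 and the mitotic genes were high in the same RNA. Its CCl4 values in E1KO, E2KO and DKO were 35.7, 47.4 and 36.6 FPKM. Over the genotypes the difference was 4.28 ± 0.36 (SE, limma, adjusted p 5.08e-05), higher in 4 of 4. Cdkn2c (p18) was 3.74, 1.41 and 19.1 FPKM, and Phlda3, a p53 target that restrains Akt, 0.67, 1.23 and 9.44 FPKM. Mdm4, which restrains p53, was lower at 5.76, 2.12 and 1.43 FPKM, a difference of -1.48 from 2 months but -0.36 from 8 months. Gdf15, often raised in liver stress, was 7.0, 6.32 and 8.06 FPKM and did not pass the threshold.

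Cytoskeleton genes were higher for 27 of 47, with none lower and a median of 1.62 (1.33 from 8 months). Only 2 of the 46 genes that reached 1 FPKM did so through the CCl4 value alone, so nearly all of these genes were expressed in both livers. S100a11, a calcium-binding partner of annexins, was 22.3 FPKM at 2 months, 23.3 at 8 months and 318.1 with CCl4. Anxa2, a membrane and actin-binding protein, was 10.5, 12.6 and 133.9 FPKM, and Tuba1b, an alpha-tubulin, 7.19, 8.12 and 81.0 FPKM. Lgals1 (galectin 1) was 17.9 FPKM at 2 months and 199.3 with CCl4, but 188.8 at 8 months, so its difference from 8 months was 0.08.

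Other genes beyond both untreated values included markers of fetal liver. Afp, the fetal serum protein alpha-fetoprotein, was 31.3 FPKM with CCl4 against 0.75 at 2 months and 0.5 at 8 months, and 21.4, 12.2 and 21.1 FPKM in E1KO, E2KO and DKO with CCl4. Ly6d, a GPI-anchored surface protein, was 1.84, 2.07 and 153.2 FPKM, which is the second highest difference of a protein-coding gene past all the naming criteria (5.76). Golm1, a Golgi membrane protein, was 0.49, 0.38 and 7.44 FPKM. Of the 32 fetal and oncofetal genes, 5 were higher, and the median was 0.08. Akr1c18, a steroid-metabolizing reductase on none of the lists, was 0.05, 0.04 and 22.7 FPKM.

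Ezh2, the catalytic subunit of the Polycomb complex PRC2 and the gene that is floxed in these WT animals, was 1.11 FPKM at 2 months, 0.91 at 8 months and 5.68 with CCl4, a difference of 1.66. Its FPKM was also higher with CCl4 in E1KO (0.8 to 4.68 FPKM), E2KO (0.84 to 3.92) and DKO (0.74 to 2.51). In E2KO and DKO a whole-gene value of liver tissue cannot tell transcript of the deleted allele from intact Ezh2 of other cells. Over the genotypes the Ezh2 difference was 1.44 ± 0.17 (SE, limma, adjusted p 0.000175). Of the 29 PRC2 and PRC1 genes, 2 were higher and 2 lower. The other higher gene was the histone-binding subunit Rbbp7 (23.0 to 49.9 FPKM). The lower genes were the accessory subunit Phf1 (4.81 to 1.02 FPKM) and the H3K27 demethylase Kdm6b (3.06 to 0.88 FPKM, with 1.65 at 8 months).

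Genes of the pericentral hepatocytes, where the toxin is activated, were lower. Of 39 pericentral genes, 14 were lower past the threshold, 13 of them beyond both untreated values and 13 also in E1KO and E2KO; 3 were higher. The median was -0.74 from 2 months and -0.93 from 8 months. In a whole-tissue sample, fewer cells of a type and less RNA per cell cannot be told apart, which holds for every marker below.

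Cyp2e1 was 5359 FPKM at 2 months, 5965 at 8 months and 463.7 with CCl4, which left 8.65% of the 2-month value. Glul (glutamine synthetase), made only by the innermost pericentral cells, was 274.9, 289.4 and 28.1 FPKM, or 10.2% of the 2-month value. Slc1a2, the glutamate transporter of the same cells, was 26.6, 27.8 and 0.13 FPKM, and Oat (ornithine aminotransferase) 277.6, 556.8 and 32.4 FPKM. For all 4 genes the CCl4 value lay below both untreated values. Tbx3, a Wnt-responsive factor of this zone, was 8.34, 2.95 and 1.11 FPKM, so its difference was -2.15 from 2 months and -0.90 from 8 months. Cyp1a2 was 766.9, 604.2 and 403.3 FPKM and did not pass the threshold (-0.93).

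With CCl4, Cyp2e1 was 151.1 FPKM in E1KO and 386.1 in E2KO, differences of -5.23 and -3.93 from their own 2-month values against -3.53 in WT. Glul was 22.6 and 36.8 FPKM. In DKO the values with CCl4 were 3857 FPKM for Cyp2e1, 137.9 for Glul and 10.8 for Slc1a2, each far above WT. The difference of Cyp2e1 over the genotypes was -3.25 ± 0.77 (SE, limma, adjusted p 0.00653), and its WT-by-CCl4 term gave limma adjusted p 0.999. That term sets WT against the average of the other genotypes, which differ among themselves here.

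Periportal genes, made at the other end of the lobule, had 10 of 29 lower and 3 higher, with a median of -0.41 (-0.34 from 8 months). Pck1, the key enzyme of gluconeogenesis, was 1093 FPKM at 2 months, 1114 at 8 months and 216.0 with CCl4. Sds (serine dehydratase) was 352.6, 174.9 and 89.8 FPKM, and Gls2, the liver glutaminase, 148.6, 162.6 and 57.5 FPKM. Cyp2f2, a periportal P450, was 1062, 686.1 and 501.6 FPKM, which passed the threshold from 2 months (-1.08) but not from 8 months (-0.45). Apoc2, an activator of lipoprotein lipase, was among the 3 higher members, at 367.8, 521.1 and 2027 FPKM. Hamp (hepcidin), also on this list, stood at 4603, 5072 and 4873 FPKM. The median of the periportal list was nearer 0 than that of the pericentral list from both references; no test compares the lists.

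**Figure D3:**
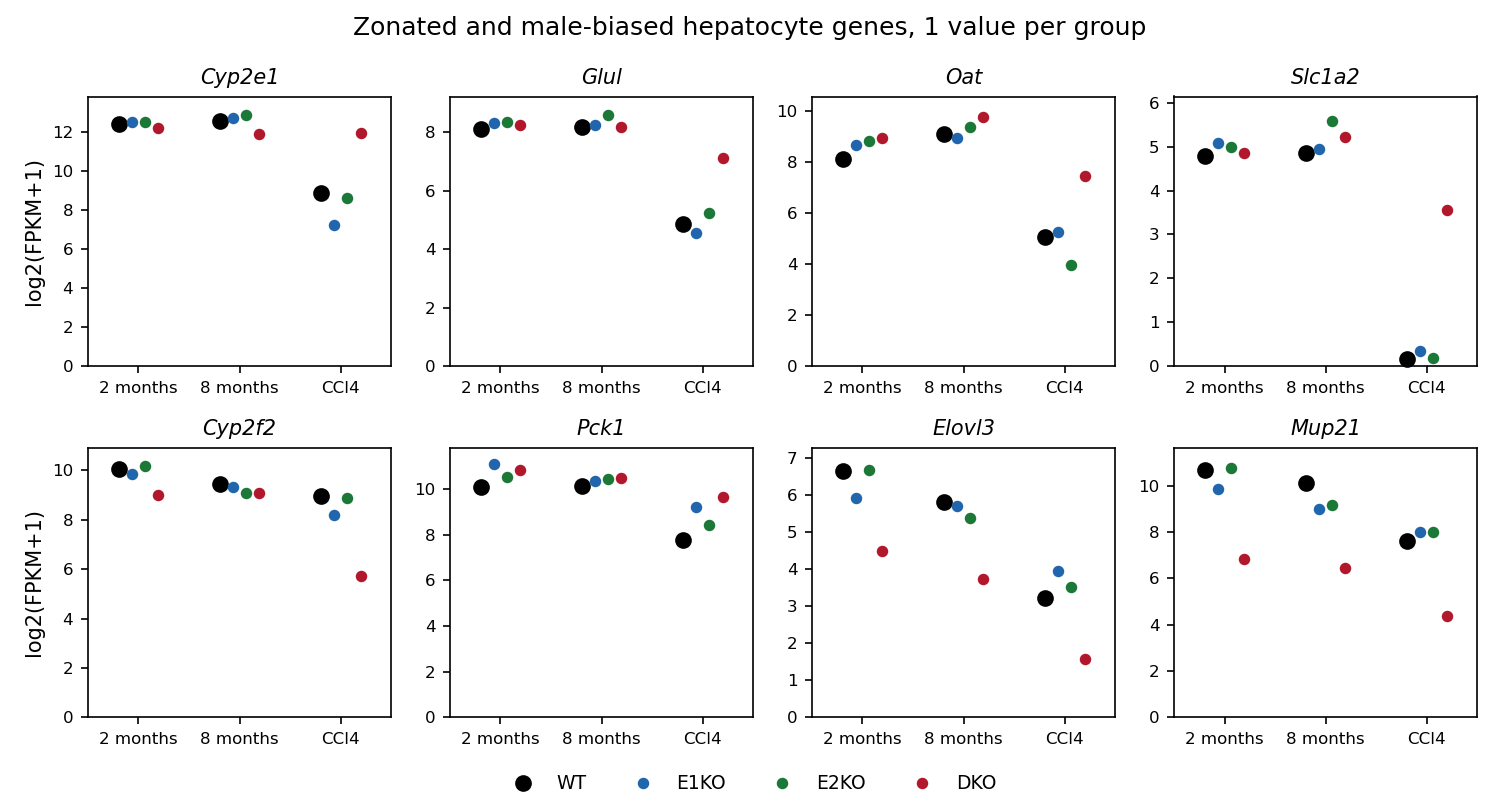
Log2(FPKM+1) of 8 hepatocyte genes at 2 months, at 8 months and with CCl4 (x axis) in WT (large black points), E1KO, E2KO and DKO, 1 value per group without error bars. With CCl4 the WT, E1KO and E2KO points lie below every untreated point for Cyp2e1, Glul, Oat and Slc1a2, while DKO lies higher; for Elovl3 and Mup21 DKO is the lowest in every condition.

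P450 enzymes of drug and xenobiotic metabolism were lower for 24 of 57 genes and higher for 9, with a median of -0.61 (-0.58 from 8 months). The summed FPKM of these genes came to 7021 with CCl4, against 17134 at 2 months and 19132 at 8 months. Cyp2c37 was 107.2, 273.7 and 17.0 FPKM, Cyp2c38 4.54, 27.5 and 0.14 FPKM, and Cyp4a12a 383.6, 361.8 and 74.9 FPKM. Cyp2d13, outside the list, was 71.6, 102.0 and 6.97 FPKM. Among the higher members was Cyp2b10, the classical target of the receptor CAR, at 8.44, 12.2 and 39.5 FPKM, although Nr1i3 (CAR itself) was lower at 40.1, 91.3 and 17.7 FPKM. Cyp2c70 (904.2, 258.6 and 297.5 FPKM) was lower than at 2 months but not than at 8 months. Members of the Cyp2c, Cyp2d and Cyp4a families are near copies of each other, and how reads were shared among them is not given, so single values in these families are uncertain.

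Male-biased liver genes had the lowest median of the 40 lists from 2 months, at -1.45. Among 29 such genes with a value, 23 were lower and none was higher. From 8 months the median was -0.90, and lipogenic (-1.07) and pericentral genes (-0.93) were lower. Beyond both references were 14 of the male-biased genes. In untreated WT liver their summed level was 13471 FPKM at 2 months and 9042 at 8 months, and with CCl4 it was 6570. Elovl3, a fatty acid elongase, was 99.3, 54.8 and 8.24 FPKM, Mup21, a major urinary protein, 1624, 1094 and 194.1 FPKM, and the hydroxysteroid dehydrogenase Hsd3b2 69.5, 29.2 and 7.05 FPKM. Ugt2b38, a glucuronosyltransferase, was 30.3, 5.33 and 1.88 FPKM. For these 4 genes the 8-month value lay between the others. Hsd3b5 (174.6, 59.0 and 44.0 FPKM) and Cyp7b1 (342.9, 94.5 and 104.2 FPKM) with CCl4 were close to the 8-month value. The Mup, Ugt2b and Hsd3b families also hold near copies.

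Female-biased and growth hormone axis genes had no such common direction, with 8 of 48 higher, 9 lower and a median of -0.03. Socs2, a growth hormone target, was 19.5, 7.93 and 4.0 FPKM. Igf1, the growth factor that growth hormone induces in liver, was 263.3, 232.9 and 197.6 FPKM, within the threshold. The receptors Egfr (183, 40.3 and 70.9 FPKM) and Lifr (133.8, 32.1 and 36.6 FPKM) were lower than at 2 months but above their 8-month values. Abcd2, a peroxisomal fatty acid transporter, was 0.51, 2.76 and 8.26 FPKM, and Spink3, a trypsin inhibitor, 0.57, 0.77 and 22.6 FPKM.

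Urea cycle and amino acid catabolism genes were lower in 17 of 62 cases and higher in none, with a median of -0.53 (-0.73 from 8 months). All 62 reached 1 FPKM in both groups. The summed level was 21483 FPKM at 2 months, 22611 at 8 months and 12650 with CCl4. Otc, the urea cycle enzyme ornithine transcarbamylase, was 419.5, 493.6 and 82.2 FPKM. Hpd, of tyrosine breakdown, was 1749, 1620 and 523.5 FPKM, and Haao, of tryptophan breakdown, 505.0, 708.2 and 158.3 FPKM. Limma called 40 of the 62 downward and 2 upward.

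Of the 49 unfolded protein and integrated stress response genes, 4 were higher than at 2 months and 2 lower, with a median of 0.04. From 8 months 13 were higher and 4 lower, with a median of 0.50. Asns (asparagine synthetase) was 3.94, 2.12 and 29.2 FPKM. Psat1 and Phgdh, enzymes of serine synthesis, were 0.39, 0.17 and 11.98 FPKM and 0.08, 0.04 and 2.34 FPKM. Mthfd2, of mitochondrial folate metabolism, was 1.32, 0.4 and 6.3 FPKM. These were the 4 genes higher than at 2 months, and all 4 were beyond both references. The lower 2 were Chac1, which degrades glutathione (3.87, 2.58 and 0.52 FPKM), and the small heat shock protein Hspb1 (22.1, 28.1 and 10.1 FPKM).

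NRF2 targets and glutathione genes were higher for 11 of 63 and lower for 4, with a median of 0.09. From 8 months 10 were higher and 11 lower, with a median of -0.07. Cbr3, a carbonyl reductase, was 0.15, 0.67 and 4.68 FPKM, and Gsta1, a glutathione transferase, 0.58, 6.5 and 22.0 FPKM. Cat (catalase) was lower, at 1619, 1952 and 504.0 FPKM. Nqo1, the usual marker of NRF2 activity, was 3.04, 8.56 and 6.98 FPKM (difference 0.98), and Hmox1, which degrades heme, 17.0, 9.5 and 18.1 FPKM, so neither passed the threshold in WT. In E1KO, E2KO and DKO Hmox1 differed by 2.11, 1.37 and 2.18, from 2-month values of 8.43, 7.38 and 7.13 FPKM. Its difference over the genotypes was 1.44 ± 0.34 (SE, limma, adjusted p 0.00591). Nqo1 differed by -0.11, -0.64 and 0.54 in those genotypes.

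**Figure D4:**
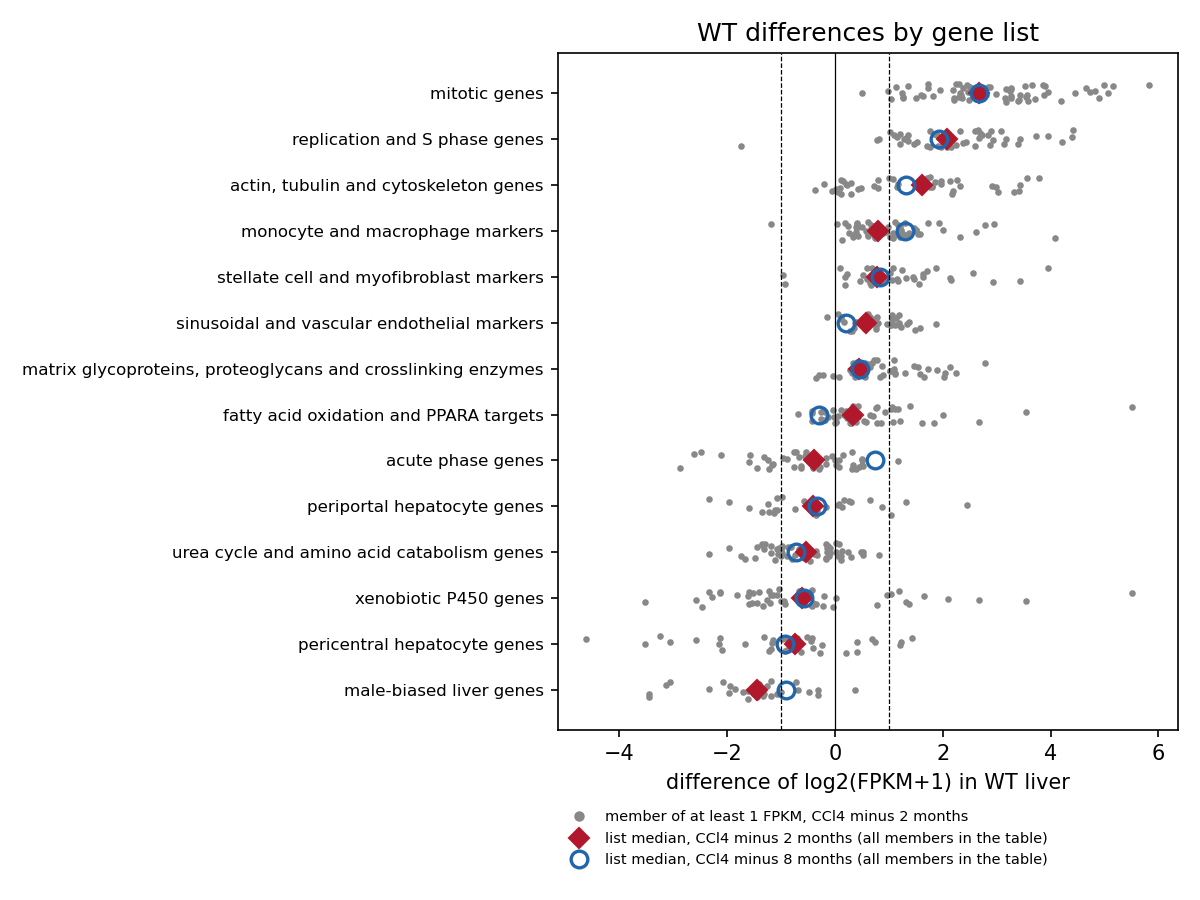
Differences of log2(FPKM+1) in WT liver (x axis) for members of 14 gene lists (rows); grey points are members of at least 1 FPKM against 2 months, red diamonds the list medians against 2 months and blue circles those against 8 months, both over all members in the table. Mitotic genes have the highest median (2.68) and male-biased genes the lowest (-1.45), and the acute phase median changes sign between references (-0.39 and 0.74).

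Markers of stellate cells and myofibroblasts were higher for 20 of 47 genes, with none lower and a median of 0.77 (0.83 from 8 months). Acta2, the smooth muscle actin of myofibroblasts, was 1.5 FPKM at 2 months, 2.21 at 8 months and 37.6 with CCl4. Tagln, an actin-binding protein of the same cells, was 7.42, 4.71 and 63.5 FPKM, and Des (desmin) 1.84, 2.0 and 6.7 FPKM. Myl9, a myosin light chain of contractile cells, was 3.74, 3.91 and 20.0 FPKM, and the calcium-binding protein S100a6 2.88, 2.65 and 40.9 FPKM. The retinol enzyme Lrat, a marker of resting stellate cells, was 1.38, 2.49 and 2.27 FPKM and did not pass the threshold, while Reln (reelin), another stellate cell marker, was 1.78, 2.47 and 7.23 FPKM. Acta2 with CCl4 was 64.5 FPKM in E1KO, 31.4 in E2KO and 6.98 in DKO.

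Of 28 collagen genes, 15 reached 1 FPKM, 10 were higher, 1 was lower and the median was 0.26. Col1a1, the main fibrillar collagen of scars, was 1.72, 0.57 and 15.6 FPKM, and Col3a1 5.72, 3.1 and 29.1 FPKM. The lower gene was Col5a3 (3.57, 10 and 0.47 FPKM). Among 71 matrix glycoprotein, proteoglycan and crosslinking genes 18 were higher and none lower, among them Spp1 (osteopontin, 56.7, 41.3 and 397.6 FPKM), Sparc (23.9, 16.4 and 99.8 FPKM) and the basement membrane protein Nid1 (1.38, 0.96 and 10.3 FPKM). Among them, Serpinh1, the chaperone of collagen folding, was 6.54, 4.47 and 30.1 FPKM. Spp1 is also on the macrophage and cholangiocyte lists.

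Of 48 matrix proteases and inhibitors, 9 were higher and none lower. Timp1, which inhibits matrix metalloproteases, was 0.58, 0.25 and 16.7 FPKM, and the macrophage elastase Mmp12 0.41, 0.03 and 2.45 FPKM. The plasminogen activator Plau was 0.32, 0.18 and 2.63 FPKM, and its receptor Plaur 0.41, 0.22 and 2.56 FPKM. The membrane protease Mmp14, which activates other metalloproteases, was 5.91, 2.22 and 17.1 FPKM. The interstitial collagenase Mmp13 stayed at 0.06, 0.03 and 0.15 FPKM. Of 40 TGF-beta and PDGF signalling genes, 5 were higher, including Tgfb1 itself (2.02, 1.91 and 5.8 FPKM) and its target Ctgf (1.15, 1.46 and 9.73 FPKM).

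Monocyte and macrophage markers were higher for 28 of 64 genes, 27 of them beyond both untreated values, and lower for 1. That gene, the lipid carrier Fabp5, was 122.3, 15.9 and 52.99 FPKM, which is lower than at 2 months (-1.19) but higher than at 8 months (1.67). The median was 0.81 from 2 months and 1.31 from 8 months. The summed level of the list was 1565 FPKM with CCl4 against 680.9 at 2 months and 651.8 at 8 months, and ran from 524.6 to 1291 over the 8 untreated columns. Cd68 was 5.78, 2.63 and 26.4 FPKM, and the lysosomal membrane protein Cd63 5.54, 5.33 and 110.1 FPKM. The macrophage markers Itgam (0.31, 0.05 and 0.68 FPKM) and Csf1r (6.26, 3.1 and 10.1 FPKM) did not pass the threshold from 2 months. Trem2, a receptor of lipid-handling macrophages, was 0.47, 0.22 and 8.05 FPKM, and Ccr2, the receptor that brings monocytes into tissue, 0.45, 0.28 and 3.32 FPKM. Gpnmb was 0.07, 0.03 and 1.65 FPKM. Lgals3 (galectin 3) was 3.88, 1.87 and 23.3 FPKM.

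Of 23 Kupffer cell markers, 4 were higher than at 2 months and 2 lower, with a median of 0.36. From 8 months 9 were higher and 1 lower, with a median of 0.87. The medians in E1KO, E2KO and DKO were 1.02, 1.11 and 0.82, and limma called 14 of the 23 upward and 3 downward over the genotypes. The summed level with CCl4 was 647.2 FPKM in WT and up to 1023 in the other genotypes, above the 8 untreated columns (332.0 to 596.4 FPKM). WT at 2 months was the highest untreated column, but this rank rests on C6, which is also on the secreted hepatocyte protein list. At 2 months C6 was 171.9 FPKM in WT, 83.2 in E1KO, 136.6 in E2KO and 46.0 in DKO. Cdh5, among the 4 higher members, is also on the endothelial list. Clec4f, a lectin made only by Kupffer cells in mouse, was 28.8, 17.5 and 26.0 FPKM, while the scavenger receptor Marco was 0.97, 0.36 and 7.64 FPKM. Chemokine and cytokine genes were higher for 8 of 69 and lower for 2. Ccl2, the ligand of Ccr2, was 1.03, 0.44 and 3.12 FPKM, and Pf4 1.49, 1.13 and 8.69 FPKM.

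Other leukocyte markers were sparse. Of 29 neutrophil markers 6 reached 1 FPKM and 1 was higher, S100a8 (3.09, 1.11 and 7.22 FPKM), while Ngp was 0.05 FPKM with CCl4. Of 47 lymphocyte markers 5 reached 1 FPKM, and Cd3e and Nkg7 stood at 0.14 and 0.28 FPKM with CCl4. The only higher member was Igj (0.8, 2.0 and 3.73 FPKM). Of 49 interferon-stimulated genes 1 was higher, Ifi27l2a (13.4, 8.05 and 45.8 FPKM), and 4 were lower, none of them past the threshold against the 8-month value.

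Endothelial markers were higher than at 2 months for 16 of 53 genes, but beyond both references for only 4, and the median was 0.58 from 2 months and 0.21 from 8 months. Gpihbp1, which anchors lipoprotein lipase in capillaries, was 8.5, 20.3 and 33.9 FPKM. Lyve1, a sinusoidal hyaluronan receptor, was 0.81, 0.9 and 4.39 FPKM, and the sinusoidal scavenger receptor Stab2 2.37, 2.54 and 2.8 FPKM. Of 42 cholangiocyte and progenitor markers 6 were higher and none lower, with Krt19 at 0.83, 0.64 and 2.77 FPKM and Aqp1 at 12.01, 20.1 and 46.8 FPKM. Krt7 (0.36, 0.32 and 1.65 FPKM) and Epcam (0.51, 0.63 and 0.79 FPKM) did not pass the threshold from 2 months. Sox9, at 1.31, 0.76 and 2.62 FPKM, did not pass the threshold from 2 months (0.65) but did from 8 months (1.04). Its differences in E1KO, E2KO and DKO were 1.12, 1.08 and 1.03. Of 36 markers of muscle, pancreas, fat, blood and mesothelium, the mesothelial genes Upk3b (0.16, 0.22 and 2.57 FPKM) and Msln (0.21, 0.32 and 2.18 FPKM) and the globin Hbb-b1 (2.21, 0.79 and 11.1 FPKM) were higher. The lower member was Cela2a (1.71, 0.63 and 0.33 FPKM), and of the 36 differences 15 were positive and 7 negative. A second globin, Hba-a1, did not follow Hbb-b1, at 12.6, 13.1 and 9.81 FPKM. Cela1 was 36.8, 35.0 and 19.6 FPKM, and neither of these passed the threshold. The muscle gene Acta1 was 0 in WT with CCl4. The part of cell numbers in any of these differences was not tested.

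The acute phase list shows how much rests on the WT 2-month column. From 2 months, 12 of 48 genes were lower and 1 higher with CCl4 and the median was -0.39, whereas from 8 months the median was 0.74. Saa1, a serum amyloid A protein made in inflammation, was 2517 FPKM at 2 months, 128.6 at 8 months and 1136 with CCl4. Saa2 was 2175, 49.3 and 726.0 FPKM. The metal-binding proteins Mt1 (1825, 15.1 and 296.4 FPKM) and Mt2 (1212, 6.31 and 214.6 FPKM) gave the same order. In each case the CCl4 value lay between the untreated values.

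In the other genotypes at 2 months, Saa1 was 239.9 FPKM in E1KO, 465.8 in E2KO and 318.5 in DKO, and Mt1 was 221.7, 60.4 and 281.3 FPKM. The WT value at 2 months was thus the highest of the 8 untreated columns for both genes. With CCl4, Saa1 was 2473 FPKM in E1KO, 3458 in E2KO and 871.1 in DKO, each above its own 2-month value. Lcn2 (lipocalin 2), an iron-binding acute phase protein, was 155.7, 5.81 and 193.7 FPKM in WT, so that it differed by 0.31 from 2 months and by 4.84 from 8 months. Over the genotypes limma gave an adjusted p of 0.101 for Saa1, 0.0558 for Saa2, 0.663 for Mt1 and 0.00919 for Lcn2. Saa1 and Saa2 are near copies, and how reads were shared between them is not given. Saa4, the form that is not induced in inflammation, was lower against both references, at 655.2, 235.3 and 89.1 FPKM. Serpina3m was the higher member (242.0, 179.1 and 548.4 FPKM).

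**Figure D5:**
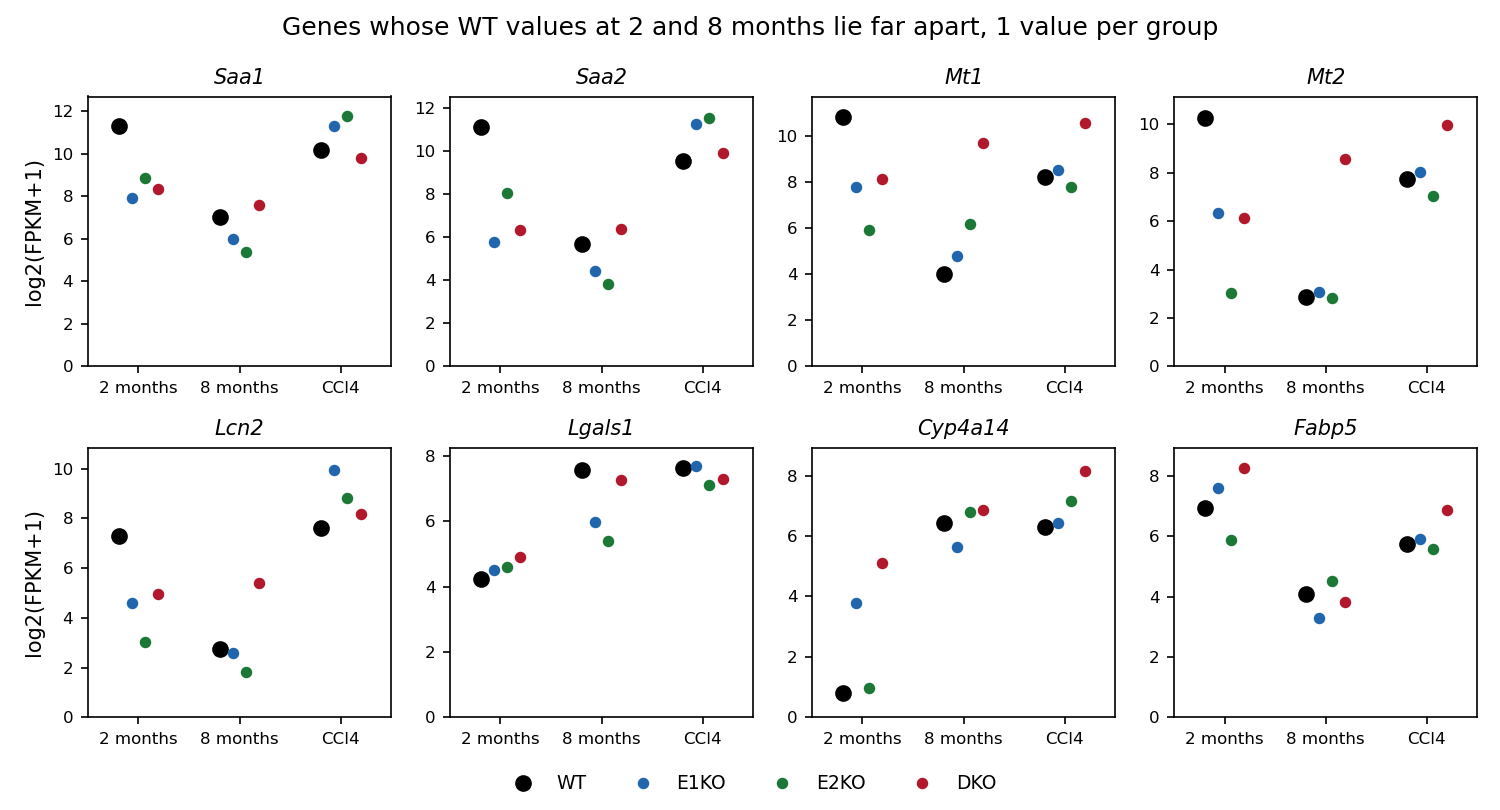
Log2(FPKM+1) of 8 genes whose WT values at 2 and 8 months lie far apart, at 2 months, at 8 months and with CCl4 (x axis) in WT (large black points), E1KO, E2KO and DKO, 1 value per group without error bars. For Saa1, Saa2, Mt1, Mt2 and Lcn2 the WT point at 2 months lies above the other 2-month points, and for Cyp4a14 the WT point at 2 months (0.74 FPKM) lies far below that at 8 months (85.2 FPKM).

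Fatty acid oxidation genes and other targets of the receptor PPAR-alpha also changed sides with the reference. From 2 months 13 of 52 were higher, none was lower and the median was 0.33, but from 8 months the median was -0.30 and only 4 genes were higher than both. Cyp4a14, a fatty acid hydroxylase, was 0.74 FPKM at 2 months, 85.2 at 8 months and 77.9 with CCl4. Cyp4a10 was 6.59, 104.5 and 47.7 FPKM, and the thioesterase Acot1 3.34, 17.8 and 14.5 FPKM. Cyp4a31 (0.64, 0.78 and 18.2 FPKM) and the mitochondrial carrier Ucp2 (5.0, 4.57 and 23.2 FPKM) were beyond both.

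Lipogenic genes were lower for 7 of 31 and higher for 3, and all 7 were also below the 8-month value. The median was -0.06 from 2 months and -1.07 from 8 months. Mlxipl (ChREBP), the glucose-responsive activator of lipogenesis, was 46.1, 69.3 and 6.27 FPKM, and its level was alike in the other genotypes with CCl4, at 4.7 to 5.65 FPKM. Scd1, a fatty acid desaturase, was 692.6, 2583 and 190.2 FPKM, and Lpin1, a phosphatidate phosphatase, 85.7, 39.2 and 13.1 FPKM. Scd2, the desaturase of fetal liver, was higher at 0.5, 0.61 and 3.61 FPKM.

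Lipid uptake and lipoprotein genes were higher for 8 of 48 and lower for 3, but from 8 months 5 were higher and 11 lower, with a median of -0.35 against -0.05 from 2 months. Apoa4, an apolipoprotein, was 193.0 FPKM at 2 months, 154.1 at 8 months and 3150 with CCl4, a difference of 4.02, and 1567, 3739 and 2524 FPKM in E1KO, E2KO and DKO with CCl4. Apom was 239.7, 96.4 and 696.9 FPKM. The fatty acid carrier Cd36 (3.64, 50.9 and 14.4 FPKM) and the lipid droplet protein Cidec (2.35, 18.6 and 8.51 FPKM) were higher than at 2 months and lower than at 8 months. Cholesterol synthesis genes were higher for 3 of 32 and lower for 1, with a median of 0.40 from 2 months and -0.01 from 8 months.

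Bile acid genes were lower for 6 of 40 and higher for 1. Cyp27a1, of the alternative synthesis route, was 164.4, 176.0 and 50.9 FPKM, and Abcb11, the bile salt export pump, 120.1, 88.6 and 44.7 FPKM. Cyp7a1, the rate-limiting enzyme of the main route, was 25.0, 19.9 and 14.9 FPKM, within the threshold. Among 45 carbohydrate genes 7 were higher and 5 lower. Those higher included the pyruvate kinase gene Pkm2 (4.16, 4.55 and 36.5 FPKM), Ldha (448.5, 413.1 and 1432 FPKM) and Fbp2 (0.02, 0.09 and 3.83 FPKM). The liver pyruvate kinase Pklr (92.7, 169.2 and 42.7 FPKM) was lower.

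Secreted hepatocyte proteins were mostly held within the threshold, with 8 of 57 lower and 1, Igfbp1 (14.2, 4.52 and 69.4 FPKM), higher. The complement genes C6 (171.9, 61.9 and 62.1 FPKM) and C8b (299.3, 100.2 and 131.6 FPKM) were lower than at 2 months but not than at 8 months. Hepatocyte markers were still expressed in the treated liver, at unlike shares of their untreated values. Fgb was 4987, 1492 and 3215 FPKM, Cps1 524.8, 167.2 and 415.4 FPKM, and Apob 277.9, 240.8 and 363.4 FPKM. The markers Cyp2e1 (5359, 5965 and 463.7 FPKM) and Hpd (1749, 1620 and 523.5 FPKM) were lower past the threshold from both references. A further marker, Serpina1a, had no value. Of 37 hepatocyte transcription factors 4 were lower and 1 higher, Esr1 (0.65, 0.17 and 2.64 FPKM). Klf15, a regulator of amino acid breakdown and gluconeogenesis, was 66.1, 80.9 and 23.2 FPKM. Of 31 iron, heme and metallothionein genes 3 were higher and 3 lower than at 2 months. None of the 3 lower genes was also lower past the threshold from 8 months, from which 7 were higher and 1 lower. The higher genes included the transferrin receptor Tfrc at 4.74, 5.66 and 19.6 FPKM.

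Clock genes were lower for 4 of 25 and higher for 1. Nr1d1 (Rev-erb alpha), a repressor in the clock, was 30.1, 19.8 and 3.49 FPKM, and the clock output factor Dbp 35.1, 44.4 and 7.76 FPKM. The higher gene was the kinase Wee1 (1.96, 5.13 and 10.8 FPKM), which also restrains mitosis. The labels do not state the hour of tissue collection, and its part in these differences was not tested.

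Genes for microRNAs and small nuclear or nucleolar RNAs made up 157 of the genes compared, of which 42 were higher and 76 lower. Many switched between 0 and high values. Mir3960 was 0 FPKM at 2 and 8 months and 78.7 with CCl4, and Snord100 was 100.6, 135.4 and 0 FPKM. These genes are shorter than the fragments of a standard mRNA library, and no weight is put on their direction. Of the 15 lowest genes by the naming rule, the longer ones not yet given were 1500017E21Rik, Mug-ps1, Serpina4-ps1, Ces3b and Upp2, with differences from -3.79 to -3.28.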

How the data were processed

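RNA was from mouse liver (TruSeq kit, 1 ug total RNA, per the labels' protocols). The authors deposited 1 table of FPKM values, given to 2 decimals, with 12 RNA columns and 1 column per group. The labels do not say how replicates were merged. The submitters' processing notes name the mouse build mm9 and, without versions or roles, HOMER, SICER, BWA, Cufflinks, TopHat and CASAVA. Depth is unknown, and no counting interval could be computed. FPKM columns summed to between 531761 and 674119.

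Differences of log2(FPKM+1) were taken per gene, with a threshold of 1 and a limit of 1 FPKM. They have no test. Limma 3.58.1 in R 4.3.3 (trend, Benjamini-Hochberg, two-sided) was fitted to genes of at least 1 FPKM in 2 columns, after a check on simulated data. The WT-by-CCl4 term left 4 residual degrees of freedom. The gene lists (40) and members were chosen with earlier results of these data known.

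Named genes were the 15 highest and 15 lowest past the threshold in WT, E1KO and E2KO and beyond both untreated WT values, up to 5 per list and direction, a fixed set of liver injury genes, and the 8 with the most unusual 2-month value. The genes shown at the threshold, and the tissue markers Fgb, Cps1, Apob, Cd3e, Nkg7, Ngp, Acta1 and Reln, are outside this rule. The same holds for the tissue markers Itgam, Csf1r, Krt7, Epcam, Cela1 and Hba-a1. Some genes that the rule names are not reported here. Promoters are from RefSeq (GRCm38.p6); symbols were matched through RefSeq synonyms where needed.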

Additional observations from a re-analysis of the deposited data

Results flagged for a closer look

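Several genes stood out because WT and another genotype were past the threshold in opposite directions under the same contrast, CCl4 minus 2 months; with 1 value per group these opposite directions were not tested between animals. Saa1 had a difference of -1.15 in WT but 3.36 in E1KO, 2.89 in E2KO and 1.45 in DKO, and Saa2 had -1.58 in WT but 5.45, 3.50 and 3.57. Mt2 had -2.49 in WT but 1.69, 3.99 and 3.85, and Mt1 had -2.62 in WT but 1.86 in E2KO and 2.44 in DKO. For these 4 genes limma's WT-by-CCl4 term gave an adjusted p of 0.999, with estimates from -5.76 to -3.71.

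Cyp4a10 had a difference of 2.68 in WT and -1.08 in E1KO, where the 2-month value was 48.6 FPKM against 6.59 in WT. Cyp2a4 had 1.65 in WT (0.39 to 3.36 FPKM) and -2.32 in E1KO (14.4 to 2.08 FPKM). Among small RNA genes, Snord2 had -5.62 in WT and was higher in E1KO, Snord37 had -4.85 in WT and was higher in the other 3 genotypes, and Snord49a had -5.31 in WT and was higher in DKO. All 3 were listed at 0 in WT liver with CCl4 and at 8 months.

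The WT-by-CCl4 term of limma passed an adjusted p of 0.05 for 2 genes of 11394 (0.0176%), with 207 at an unadjusted p under 0.05. They were the microRNA genes Mir339 (-2.62 ± 0.16, SE, limma adjusted p 0.0138) and Mir365-2 (-2.65 ± 0.17, SE, limma adjusted p 0.0138). Both were listed at 0 in every column of the other genotypes and in WT with CCl4. The estimates thus rest on the WT 2-month values alone, 5.16 FPKM for Mir339 and 5.27 FPKM for Mir365-2. The WT 8-month values (35.6 and 3.37 FPKM) have a term of their own and do not enter. WT is fitted exactly in every condition, so the error comes from the other genotypes, which were all 0 here. The adjusted p of these 2 genes therefore measures no spread in WT.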

How the results depend on the processing

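The number of genes called lower in WT was 960 with a pseudocount of 0.1, and 130 at a 4-fold threshold. The number called higher was 262 at a 4-fold threshold, 603 with at least 1 FPKM in both columns and 669 with a limit of 5 FPKM. Genes beyond both untreated values were 1201 higher and 603 lower with a pseudocount of 0.1, and 435 and 512 higher under the 2 stricter limits. Genes past the threshold in WT, E1KO and E2KO were 1097 higher and 527 lower with a pseudocount of 0.1, and 367 higher with at least 1 FPKM in both columns. Limma called 2236 genes higher with a limit of 5 FPKM. The 2 genes of its WT-by-CCl4 term became 264 without a limit on low values, 1 with a pseudocount of 0.1, 0 with a limit of 5 FPKM, 4 without the E1KO columns, 0 without E2KO, 8 without DKO, 1 without the 8-month columns and 6 without the 8-month E1KO column; these settings were chosen after seeing the data. Scaling to equal upper quartiles shifted the median of all genes by -0.0990 and took the share of higher genes among those called from 62.7% to 53.2%.

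With the 8-month column in place of the 2-month column, the WT difference reversed for Acot1 (-0.28), C6 (0.0032), C8b (0.39), Cd36 (-1.75), Cidec (-1.04), Cyp2c70 (0.20), Cyp4a10 (-1.12), Cyp4a14 (-0.13), Cyp7b1 (0.14), Egfr (0.80), Fabp5 (1.67), Lifr (0.18), Mt1 (4.21), Mt2 (4.88), Saa1 (3.13) and Saa2 (3.85). With the mean of both columns it reversed for Cd36 (-0.0104), Fabp5 (0.24), Mt1 (0.80), Mt2 (1.20), Saa1 (0.99) and Saa2 (1.14). The cause was not tested. Over all settings and genes named in the text, 1169 WT differences kept their direction and side of the threshold, 49 fell below it and 6 rose past it. Of the limma effects over genotypes, 2014 kept their direction and side, 61 fell below the threshold, 22 rose past it and none changed sign past it.

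With 1 value per group, leaving out a replicate was not possible. No paired analysis was possible because each column holds 1 value for a whole group and carries no replicate number.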
